A study of Mus musculus with 6 samples.

Results

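Genes of mitosis, the spindle and chromosome segregation were examined in cultured mouse mammary tumor cells after knockdown of Sca-1. The list held 52 genes, chosen by symbol from their known roles, with earlier results of these data known. Of them, 51 had a probe set of their own among the 18193 genes so measured. The exception was Ccnb1. Each gene was represented by the brightest of its probe sets, as the mean log2 value over all arrays, and the 51 genes had 123 probe sets in all. The cells were Wnt1-YL, a line derived from an invasive mammary carcinoma of an MMTV-Wnt1 transgenic FVB/n mouse, in which the mammary tumor virus promoter drives Wnt1. All samples came from this single line and all carried a lentiviral short hairpin RNA and underwent puromycin selection. The hairpin targeted luciferase in the 3 control arrays (shLuc) and Sca-1 in the other 3 (shSca-1). The design asked which transcripts differ when Sca-1 is depleted. Sca-1 is a GPI-anchored surface protein, encoded by Ly6a, that is used as a marker of progenitor and tumor cell subsets in the mammary gland.

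Cells that divide make most of these transcripts in G2 and mitosis. Foxm1, B-Myb and the MuvB complex activate them late in the cycle through promoter elements that include the cell cycle genes homology region (CHR). Many of these promoters also hold CCAAT boxes. In resting cells the DREAM complex represses the same genes. The encoded proteins condense the chromosomes, build the spindle, attach it to kinetochores, hold anaphase until every chromosome is attached, and then divide the cell.

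The target and the quality of the arrays bear on every value below. Ly6a had an intensity of 7646, 7362 and 2843 in shLuc replicates 1, 2 and 3, and of 285, 314 and 306 in shSca-1 replicates 1, 2 and 3. All shSca-1 values lay below all shLuc values (log2 fold change -4.17 ± 0.36 SE, limma adjusted p = 0.051, and -4.64 with adjusted p = 5.2e-07 without shLuc replicate 3). The array of shLuc replicate 3 had the lowest Ly6a of the controls and stood apart in other respects. On it, 135 probe sets reached an intensity of at least 500 and exceeded each remaining array more than 10 times, a pattern that 0 probe sets showed on any of the other 5 arrays. Its closest array reached a correlation of 0.9236 across probe sets. The summed intensity of the 9 measured of 10 luminal epithelial markers was 17048 on it and 389 to 470 on the others, and that of 8 basal markers was 18126 against 29156 to 33325. Markers of fibroblasts (163 to 399), endothelium (122 to 143) and leukocytes (320 to 587) stayed low in sum on all arrays. The main comparisons are therefore given on all 6 arrays and again without this array, while some medians and single genes are given on 6 arrays only. The part of the luminal signal in the results was not tested.

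Mitosis genes had higher mean levels in shSca-1 cells by a small margin that ran across the list. On 6 arrays the log2 fold change was above 0 for all 51, from 0.04 (Bub3) to 0.79 (Kif20b), and its median was 0.31, which is a 1.24-fold difference. Over all 18193 genes the median was -0.04, and 45.3% had a positive value (44.9% of the 6359 genes at least as bright as the dimmest of these 51). In 25 of the 51, every shSca-1 array lay above every shLuc array, and in none did the reverse hold. Among all genes, 7.18% were separated in the upward direction (10.3% of the equally bright genes) and 11.5% in the downward direction. In RNA from whole cultures, more cells in G2 and mitosis and more of these transcripts per cell cannot be told apart.

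No mitosis gene passed the limma test at an adjusted p under 0.05 on 6 arrays, and 0% of all genes passed it upward. The methods' t-test passed 0 of the 51 as well. The smallest limma adjusted p among them was 0.18, for Foxm1. At an unadjusted p under 0.05, 26 of 51 were higher, against 3.57% of all genes (5.77% of the equally bright genes). The study's own thresholds, an unadjusted p under 0.01 with a fold change over 1.5, selected Foxm1, Cenpe and Kif20b as higher, that is 3 of 51 against 0.528% of all genes (0.566% of the equally bright genes). They selected no mitosis gene as lower, against 1.52% of all genes. Foxm1, Cdc20 and Cenpe were on the study's list of changed genes from these same arrays, so their direction is not independent evidence.

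Without shLuc replicate 3, 27 of the 51 rose at an adjusted p under 0.05 and none fell, against 1.17% of all genes that rose (2.67% of the equally bright genes) and 2.73% that fell. The 27 differences lay between 0.35 and 0.83 on the log2 scale, or 1.27-fold to 1.77-fold, with adjusted p from 0.0081 to 0.049. The median of the 51 was 0.44 (1.35-fold), and Cit (-0.03) was the single gene with a value under 0. In 46 of 51, the shSca-1 arrays lay above both remaining shLuc arrays, against 15.4% of all genes (21.4% of the equally bright genes). The 27 calls rest on 2 shLuc arrays and on how dim probe sets other than these 51 were treated. With intensities under 64 set to 64 on the same 5 arrays, 0 of 51 passed, although 9 were past the study's thresholds. The lowest value of the 51 on any array was 192 (Cdc25c, shLuc replicate 2). The floor left their median at 0.44 and their range at -0.03 to 0.83. Why the calls were lost was not tested. The same 27 genes passed after quantile normalization (37 of the 51) or median centring (32 of the 51) of the 5 arrays. Calls over all 18193 genes, in either direction, moved with these settings too, from 708 to 20 with the floor of 64, 1114 after quantile normalization and 931 after centring.

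**Figure D1:**
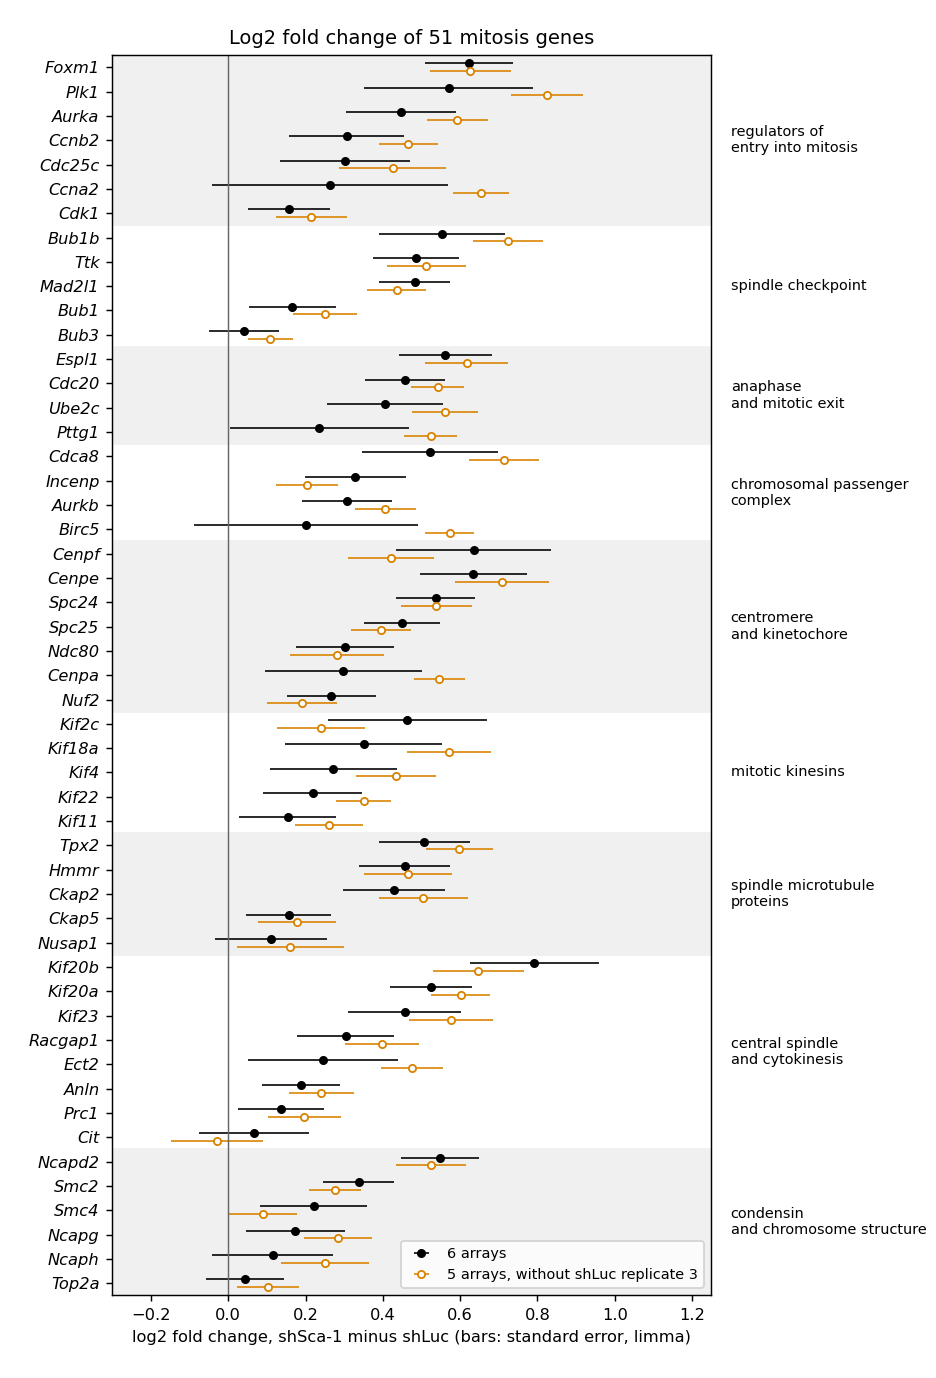
Log2 fold change (x axis, shSca-1 minus shLuc) of the 51 mitosis genes, grouped by role, with limma standard errors as bars. Filled points are from 6 arrays and open points from the 5 arrays without shLuc replicate 3. All filled points lie above 0, from 0.04 for Bub3 to 0.79 for Kif20b, and Cit is the single gene whose open point is below 0.

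Among the mitosis genes the arrays themselves fell into a graded pattern. Each gene's log2 intensity was taken relative to its own mean over 6 arrays. The median of the 51 was -0.21 and -0.28 on shLuc replicates 1 and 2, 0.04 on shLuc replicate 3, and 0.09, 0.19 and 0.25 on shSca-1 replicates 1, 2 and 3. The medians of all genes on these arrays stayed between -0.07 and 0.05. Of the 51 genes, 4, 2 and 28 exceeded their own mean on shLuc replicates 1, 2 and 3, and 40, 48 and 51 did so on shSca-1 replicates 1, 2 and 3. On shLuc replicate 3 the genes scattered widely. This array lay above both other shLuc arrays for 36 genes and below both for 11. For 23 genes it was at or above the lowest shSca-1 array. It was the highest of all 6 arrays for 7 genes (Birc5, Ccna2, Cenpa, Pttg1, Ect2, Kif4 and Bub3) and the lowest of all 6 for 11 (Cenpf, Kif20b, Kif2c, Incenp, Smc4, Smc2, Mad2l1, Spc25, Nuf2, Ncapd2 and Cit). For 14 genes it lay between the other shLuc arrays and the shSca-1 arrays.

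**Figure D2:**
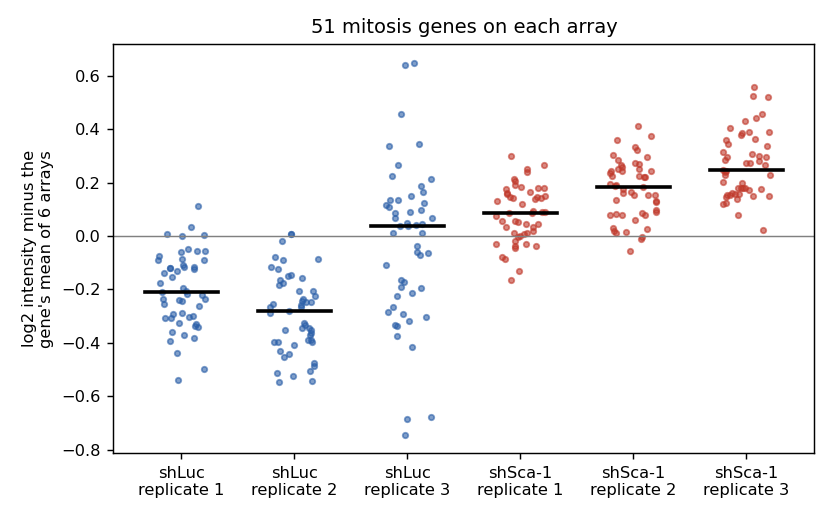
Log2 intensity of each of the 51 mitosis genes minus its mean over the 6 arrays (y axis), by array (x axis). Points are genes and black lines are medians, which run from -0.28 on shLuc replicate 2 to 0.25 on shSca-1 replicate 3, with shLuc replicate 3 the most scattered.

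Many promoters of these genes hold the letters of the elements described above. RefSeq promoter windows (build GRCm38.p6, 250 bases before to 50 after an annotated start) were at hand for 43 of the 52 genes, in 46 windows. They were searched on both strands for CCAAT (or ATTGG) and for the CHR letters TTTGAA (or TTCAAA), with 1 overlap of the 2 kinds of match. CCAAT was in 73.9% of the members' windows, against 37.4% of all 32851 windows and 38.2% of those of protein-coding genes. The CHR letters were in 76.1%, against 17.9% and 16%. Both were in 67.4%, against 6.95% and 6.38%. Of 95 windows of other mitosis genes, from the related lists described below, 60% held CCAAT, 38.9% the CHR letters and 25.3% both. Of the windows of G1/S and DNA replication genes, 59.1% held CCAAT, 11.4% the CHR letters and 9.09% both. A match of letters describes the window and is not evidence of binding. The median first base lay 66 bases before the start for CCAAT (-66) and 10 before it for CHR (-10).

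The last 100 bases before the start are shown for the 6 genes with full values below that hold both kinds of match in that stretch, with the matches in capitals, because they hold the same letters while their values run from high to low within the list.
Cdc20, chr4:118437344-118437443, minus strand: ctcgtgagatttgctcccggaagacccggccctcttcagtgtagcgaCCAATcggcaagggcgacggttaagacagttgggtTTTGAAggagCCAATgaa
Espl1, chr15:102296193-102296292, plus strand: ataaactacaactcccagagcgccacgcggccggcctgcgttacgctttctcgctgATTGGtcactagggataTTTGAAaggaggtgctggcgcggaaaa
Cdk1, chr10:69352913-69353012, minus strand: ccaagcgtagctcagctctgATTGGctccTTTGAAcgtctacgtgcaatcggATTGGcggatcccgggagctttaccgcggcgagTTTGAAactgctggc
Kif11, chr19:37376282-37376381, plus strand: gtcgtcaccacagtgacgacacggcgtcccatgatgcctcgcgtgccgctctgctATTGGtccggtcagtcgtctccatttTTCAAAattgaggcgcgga
Top2a, chr11:99024190-99024289, minus strand: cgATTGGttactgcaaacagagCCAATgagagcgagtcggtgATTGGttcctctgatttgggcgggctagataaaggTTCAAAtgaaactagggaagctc
Bub3, chr7:131560270-131560369, plus strand: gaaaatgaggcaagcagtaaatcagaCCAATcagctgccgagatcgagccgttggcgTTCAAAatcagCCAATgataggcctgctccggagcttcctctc
Cdc20 and Espl1 rose without shLuc replicate 3, with log2 fold changes of 0.54 and 0.62, whereas Cdk1 (0.22), Kif11 (0.26), Top2a (0.10) and Bub3 (0.11) did not pass that test. In the set with both matches, 28 measured genes had a median log2 fold change of 0.37 on 6 arrays and 0.47 without shLuc replicate 3, where 15 of them rose. The 8 measured genes with neither match (Birc5, Cit, Kif18a, Mad2l1, Ncaph, Nuf2, Nusap1 and Pttg1) had medians of 0.22 and 0.34, and 4 of them rose. The 4 with the CHR letters alone had medians of 0.38 and 0.26, and 1 rose. The 2 with CCAAT alone had 0.40 and 0.48, and 1 rose. In the whole list 27 of 51 rose, against 1.17% of all genes. These medians are descriptive and their differences were not tested.

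**Figure D3:**
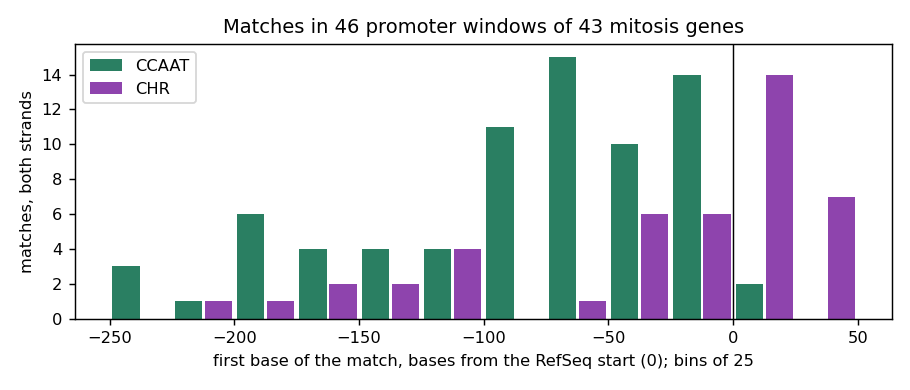
Number of CCAAT and CHR matches (y axis) by distance of their first base from the RefSeq start (x axis, bases, bins of 25) in 46 windows of 43 mitosis genes. CCAAT matches gather in the 100 bases before the start (50 of 74), and 21 of 44 CHR matches lie after it.

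Regulators that bring cells into mitosis had a median log2 fold change of 0.31 over the 7 measured, and 0.59 without shLuc replicate 3, where 5 of them rose. The counts by role here and below stand beside 27 of all 51 and 1.17% of all genes that rose without shLuc replicate 3. For separation upward on 6 arrays they stand beside 25 of the 51 and 7.18% of all genes. The roles were not tested against each other. Foxm1, the transcription factor of the G2 and mitosis program, was at 262, 252 and 259 in shLuc replicates 1, 2 and 3 and at 362, 415 and 416 in shSca-1. The groups did not overlap, and here shLuc replicate 3 lay between the other shLuc arrays. The difference was 0.62 ± 0.11 on the log2 scale (SE, n = 3 and 3, limma adjusted p = 0.18), and 0.63 with an adjusted p of 0.027 without that array. Aurka, the kinase that matures centrosomes, was at 775, 746 and 1031 in shLuc and 1087, 1149 and 1208 in shSca-1. All shSca-1 values were higher, although shLuc replicate 3 came close to them, and the log2 fold change was 0.45 ± 0.14 (SE, limma adjusted p = 0.42), or 0.59 (adjusted p = 0.013) without it. Cdk1, the kinase whose activation starts mitosis, was at 3418, 3210 and 3739 in shLuc and 3427, 4074 and 4071 in shSca-1, so the groups overlapped. Its log2 fold change of 0.16 ± 0.11 (SE, limma adjusted p = 0.71) was the lowest of these regulators and stayed at 0.22 (adjusted p = 0.29) without shLuc replicate 3. Plk1, a kinase of centrosomes and kinetochores, rose the most of the 51 genes without that array, by 0.83 (1.77-fold), while shLuc replicate 3 itself (1138) lay within the shSca-1 range of 1087 to 1314. The cyclins Ccna2 and Ccnb2 also rose there, by 0.65 and 0.47, and the Cdk1-activating phosphatase Cdc25c (0.43) did not pass.

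The spindle checkpoint, which holds anaphase while kinetochores are unattached, had a median log2 fold change of 0.48 over 5 genes, and 3 rose without shLuc replicate 3. Mad2l1, the checkpoint protein Mad2, was at 2021, 1831 and 1746 in shLuc and 2468, 2660 and 2683 in shSca-1. The groups were apart with shLuc replicate 3 as the lowest array (log2 fold change 0.48 ± 0.09 SE, limma adjusted p = 0.21). Ttk, the kinase Mps1 that starts checkpoint signaling, was at 461, 415 and 461 in shLuc and 573, 627 and 676 in shSca-1. Its groups were also apart, at 0.49 ± 0.11 (SE, limma adjusted p = 0.27). Without shLuc replicate 3, Mad2l1 rose by 0.44 (adjusted p = 0.029), Ttk by 0.51 (adjusted p = 0.046) and Bub1b, the BubR1 inhibitor of Cdc20, by 0.72 (adjusted p = 0.011). Bub3, the partner of Bub1 and Bub1b, was at 2709, 2708 and 3123 in shLuc and at 2902, 2937 and 2922 in shSca-1. The shLuc replicate 3 value exceeded all shSca-1 values, and the log2 fold change of 0.04 ± 0.09 (SE, limma adjusted p = 0.92) was the smallest of all 51. Bub1, the kinase that marks kinetochores for the checkpoint, had 0.17.

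Genes of anaphase and mitotic exit had a median log2 fold change of 0.43, and all 4 rose without shLuc replicate 3. Cdc20, which activates the anaphase-promoting complex, was at 2687, 2610 and 3158 in shLuc and 4047, 3880 and 3648 in shSca-1. The groups were apart (log2 fold change 0.46 ± 0.10 SE, limma adjusted p = 0.26), and the difference without shLuc replicate 3 was 0.54 (adjusted p = 0.011). Espl1, the separase that cleaves cohesin, was at 305, 267 and 320 in shLuc and 407, 450 and 458 in shSca-1. These groups did not overlap either (0.56 ± 0.12 SE, limma adjusted p = 0.25), with 0.62 (adjusted p = 0.029) without shLuc replicate 3. Pttg1, the securin that inhibits separase, was at 2189, 2048 and 3855 in shLuc and 2984, 2979 and 3176 in shSca-1. On this probe set shLuc replicate 3 was 1.82 times the mean of the other shLuc arrays. The log2 fold change was 0.24 ± 0.23 (SE, limma adjusted p = 0.80) with that array and 0.52 (adjusted p = 0.012) without it. Another Pttg1 probe set, with a mean intensity of 2052, had 0.54 with that array and 0.63 without it. A dim one, with a mean of 47.2, had 0.17 and -0.20. Ube2c, the ubiquitin-conjugating enzyme of the complex, rose by 0.56 on 5 arrays and had 0.41 on 6.

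The chromosomal passenger complex corrects faulty attachments and later guides cytokinesis. Its 4 genes had a median log2 fold change of 0.32, and Aurkb, Birc5 and Cdca8 rose without shLuc replicate 3. Cdca8, the subunit borealin, was at 918, 845 and 1314 in shLuc and 1425, 1340 and 1575 in shSca-1. The highest shLuc value lay just under the lowest shSca-1 value (0.52 ± 0.18 SE, limma adjusted p = 0.45), and without shLuc replicate 3 the difference was 0.71 (adjusted p = 0.011). The kinase of the complex, Aurkb, was at 588, 576 and 714 in shLuc and 737, 791 and 786 in shSca-1. The groups were narrowly apart, with a log2 fold change of 0.31 ± 0.12 (SE, limma adjusted p = 0.50), or 0.41 (adjusted p = 0.042) on 5 arrays. Birc5, survivin, was at 1798, 1718 and 3802 in shLuc and 2605, 2665 and 2573 in shSca-1. Here shLuc replicate 3 exceeded every shSca-1 array and was 2.16 times the mean of the other shLuc arrays. The log2 fold change was 0.20 ± 0.29 (SE, limma adjusted p = 0.86) with it and 0.57 (adjusted p = 0.0084) without it. Incenp, the scaffold of the complex, was separated on 6 arrays at 0.33 but had 0.20 (adjusted p = 0.26) on 5.

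Centromere and kinetochore genes had a median log2 fold change of 0.45, and 5 of the 7 were separated on all 6 arrays. Cenpe, the kinesin that carries chromosomes to the metaphase plate, was at 367, 327 and 405 in shLuc and 525, 530 and 652 in shSca-1. Its groups were apart, with a log2 fold change of 0.63 ± 0.14 (SE, limma adjusted p = 0.25), and 0.71 (adjusted p = 0.028) without shLuc replicate 3. The Ndc80 complex, which binds the microtubule, consists of Ndc80, Nuf2, Spc24 and Spc25. Spc24 was at 378, 395 and 387 in shLuc and 560, 597 and 528 in shSca-1. Its shLuc values lay close together (SD 8.41) and apart from shSca-1, and the log2 fold change was 0.54 on 6 arrays (± 0.10 SE, limma adjusted p = 0.20) and 0.54 on 5 (adjusted p = 0.028). Spc25 was at 1130, 1049 and 970 in shLuc and 1357, 1491 and 1450 in shSca-1, also apart (0.45 ± 0.10 SE, limma adjusted p = 0.25, and 0.40 with adjusted p = 0.043 on 5 arrays). Nuf2 was at 1264, 1163 and 1034 in shLuc and 1262, 1493 and 1403 in shSca-1. The groups touched, and its log2 fold change was 0.27 ± 0.12 (SE, limma adjusted p = 0.55), or 0.19 (adjusted p = 0.36) on 5 arrays. Ndc80 had 0.30 and 0.28 on 6 and 5 arrays. Cenpf, a large kinetochore protein, had 0.64 on 6 arrays with shLuc replicate 3 (463) far under the other arrays, and 0.42 (adjusted p = 0.10) without it. Cenpa, the centromeric histone H3 variant, had 0.30 and rose by 0.55 on 5 arrays.

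**Figure D4:**
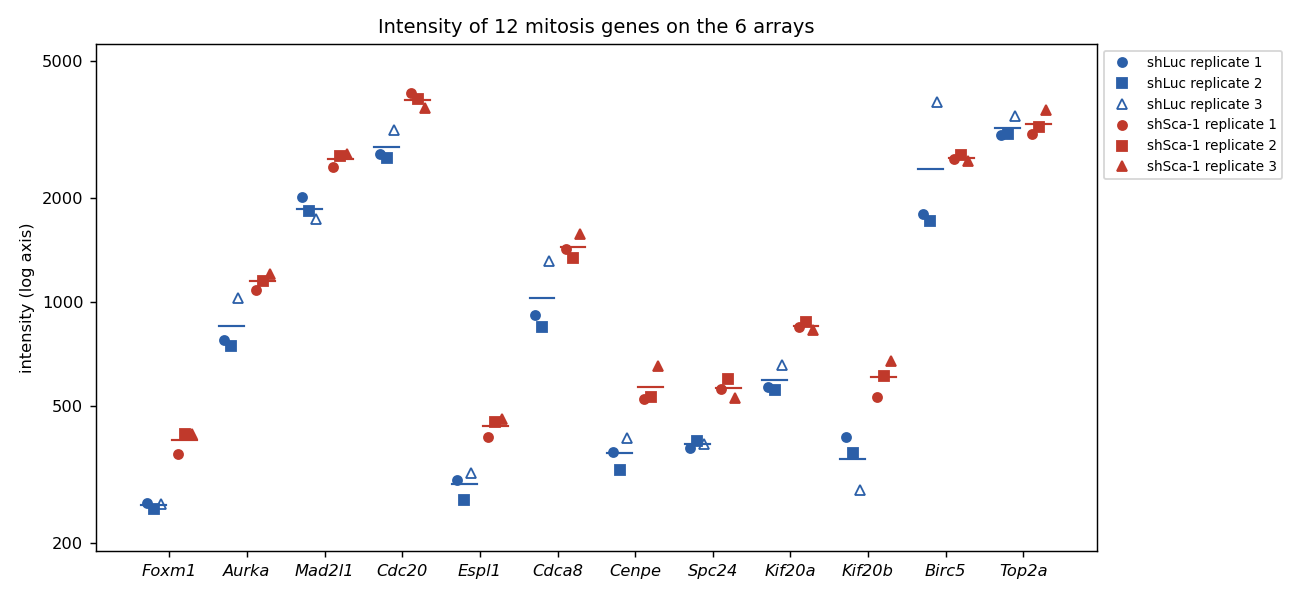
Intensity (y axis, log scale) of 12 mitosis genes on each array (x axis, by gene), with shLuc points blue, shSca-1 points red, horizontal lines at the group means and shLuc replicate 3 as an open triangle. For Foxm1 to Kif20b every red point lies above every blue point, whereas Birc5 at 3802 on shLuc replicate 3 and Top2a overlap.

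Mitotic kinesins, motors that move along spindle microtubules, had a median log2 fold change of 0.27 over 5 genes, and 1 of them was separated on 6 arrays. Kif2c, which removes tubulin from microtubule ends at centromeres, was at 938, 927 and 587 in shLuc and 1036, 1003 and 1288 in shSca-1. The groups were apart (0.46 ± 0.21 SE, limma adjusted p = 0.56). On this probe set much of the difference came from shLuc replicate 3, and it was 0.24 (adjusted p = 0.36) without that array. Other Kif2c probe sets had 0.21 with that array and 0.14 without it (mean intensity 573), 0.63 and 0.65 (mean 437), and 0.19 and 0.20 (mean 55.9). Kif18a, which damps chromosome movements at the plate, was at 429, 379 and 639 in shLuc and 550, 595 and 657 in shSca-1. Its difference grew without shLuc replicate 3, from 0.35 ± 0.20 (SE, limma adjusted p = 0.66) to a rise of 0.57 (adjusted p = 0.038) on 5 arrays. Kif11, the motor that pushes the spindle poles apart, was at 573, 525 and 683 in shLuc and 631, 649 and 691 in shSca-1. These groups overlapped, and the log2 fold change was 0.15 ± 0.13 (SE, limma adjusted p = 0.75), or 0.26 (adjusted p = 0.19) on 5 arrays. Of the chromosome-arm kinesins, Kif22 rose by 0.35 on 5 arrays and Kif4 had 0.43 (adjusted p = 0.075).

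Spindle microtubule proteins had a median log2 fold change of 0.43, and 4 of 5 were separated on 6 arrays. Tpx2, which activates Aurora A and seeds microtubules near chromosomes, was at 698, 691 and 840 in shLuc and 980, 1045 and 1135 in shSca-1. The groups were apart (0.51 ± 0.12 SE, limma adjusted p = 0.28), and Tpx2 was the gene of these 5 that rose without shLuc replicate 3 (0.60, adjusted p = 0.016). Hmmr, a spindle pole and hyaluronan-binding protein, was at 752, 733 and 755 in shLuc and 929, 974 and 1189 in shSca-1. Its shLuc values were tight and all lower, with 0.46 ± 0.12 (SE, limma adjusted p = 0.32) on 6 arrays and 0.47 (adjusted p = 0.080) on 5. Nusap1, which bundles microtubules around chromosomes, was at 1112, 1027 and 1188 in shLuc and 1025, 1146 and 1452 in shSca-1. Here an shSca-1 array was the lowest of all 6, the single such case among the 51, and the log2 fold change was 0.11 ± 0.15 (SE, limma adjusted p = 0.85). Ckap2 had 0.43 and Ckap5, a microtubule polymerase, had 0.16.

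Genes of the central spindle and cytokinesis ran from 0.07 (Cit) to 0.79 (Kif20b) on 6 arrays, with a median log2 fold change of 0.27 over 8. Kif20b, a kinesin of the midzone, was at 406, 366 and 285 in shLuc and 532, 610 and 675 in shSca-1. It had the highest log2 fold change on 6 arrays, 0.79 ± 0.17 (SE, limma adjusted p = 0.24), with shLuc replicate 3 as the lowest array, and 0.65 (adjusted p = 0.034) without it. Kif20a, which brings the passenger complex to the midzone, was at 567, 557 and 659 in shLuc and 847, 878 and 832 in shSca-1. The shSca-1 values lay close together and above all shLuc values (0.52 ± 0.11 SE, limma adjusted p = 0.22, and 0.60 with adjusted p = 0.011 on 5 arrays). Cit, the citron kinase of abscission, was at 318, 296 and 252 in shLuc and 269, 311 and 327 in shSca-1. Its groups overlapped, with 0.07 ± 0.14 (SE, limma adjusted p = 0.92) on 6 arrays and -0.03 (adjusted p = 0.94) on 5. Centralspindlin, made of Kif23 and Racgap1, had 0.46 and 0.30 on 6 arrays, and Kif23 rose by 0.58 on 5 arrays, as did the RhoA exchange factor Ect2 by 0.48. The cortical scaffold Anln (0.19) and the microtubule bundler Prc1 (0.14) were among the lower values.

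Condensin and chromosome structure genes had the lowest median, 0.20 over 6 genes. Ncapd2, a regulatory subunit of condensin I, was at 604, 599 and 574 in shLuc and 800, 863 and 937 in shSca-1. The groups were well apart, with 0.55 ± 0.10 (SE, limma adjusted p = 0.19) on 6 arrays and 0.52 (adjusted p = 0.028) on 5, where it was the single gene of these 6 that rose. Smc2, a core subunit of condensin, was at 1940, 1809 and 1648 in shLuc and 2224, 2295 and 2288 in shSca-1. The groups did not overlap (0.34 ± 0.09 SE, limma adjusted p = 0.34), and the value on 5 arrays was 0.28 (adjusted p = 0.079). Top2a, the topoisomerase that untangles sister chromatids, was at 3050, 3066 and 3462 in shLuc and 3061, 3209 and 3609 in shSca-1. Its groups overlapped, at 0.04 ± 0.10 (SE, limma adjusted p = 0.92). Smc4, the partner of Smc2, had 0.22 on 6 arrays and 0.09 on 5, and the subunits Ncapg (0.17) and Ncaph (0.12) were low on 6 arrays as well.

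An exact two-sided permutation test of 3 against 3 arrays cannot give a p below 0.1. It gave 0.1 for 18 of the 28 mitosis genes with values on every array above, and 0.2 to 0.7 for the other 10. A p of 0.1 arises only when the groups do not overlap, so it restates the separation counted above. The 28 were chosen in part by small p. In the whole list 25 of 51 were separated upward, beside 7.18% of all genes upward and 11.5% downward. The labels call the 3 arrays of each group biological replicates, without saying whether they came from separate cultures, so p-values measure only the spread between these arrays.

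Probe sets other than the brightest gave a second reading of the same genes on the same arrays. Of 43 such probe sets with a mean intensity of 64 or more, 41 were higher in shSca-1, and the median log2 fold change was 0.37. The exceptions belonged to Incenp (-0.14) and Top2a (-0.02). Among 29 dimmer ones, 18 were positive, with a median of 0.06.

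Other genes of mitosis had a lower median. Of 106 further genes from related lists, 104 were measured, 67 were higher in shSca-1 and the median log2 fold change was 0.09. Without shLuc replicate 3, their median was 0.18, and 13 of them rose and 2 fell, beside 1.17% and 2.73% of all genes. Spindle, kinesin and cytokinesis genes gave 10 of these 13, with a median of 0.28 over 31 on 6 arrays. Pimreg, a mitotic protein that interacts with the clathrin assembly protein Picalm, was at 592, 551 and 568 in shLuc and 862, 923 and 942 in shSca-1. Its groups were far apart (0.67 ± 0.09 SE, limma adjusted p = 0.11), and Cdca3, which serves the degradation of Wee1, had 0.51 (adjusted p = 0.18). On 5 arrays both rose, with adjusted p of 0.011 and 0.012. Kinetochore and centromere genes had a median of 0.18 over 28, and Cenpl, a constitutive centromere protein, rose on 5 arrays by 0.57 (adjusted p = 0.049), while the cohesin protector Sgo2a had 0.45 (adjusted p = 0.12).

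Kinases, cyclins and anaphase-promoting complex genes outside the list had a median log2 fold change of 0.07 over 29. Cks2, a Cdk-binding subunit, was at 3040, 3232 and 3154 in shLuc and 4457, 4704 and 4457 in shSca-1 (0.53 ± 0.08 SE, limma adjusted p = 0.11), and it rose on 5 arrays by 0.53 (adjusted p = 0.010). Cdc26, a subunit of the anaphase-promoting complex, went the opposite way at 600, 575 and 673 in shLuc and 385, 440 and 412 in shSca-1, and fell on 5 arrays (-0.51, adjusted p = 0.034). Other condensin and cohesin genes had a median of -0.06, with 4 of 16 positive and none that passed on 5 arrays. The cohesin subunit Stag2 (-0.32) and the cohesin loader Nipbl (-0.20) had the smallest unadjusted p of that list. Genes of G1/S and DNA replication had a median of 0.02 over 48, with 27 positive, and on 5 arrays 1 rose and 3 fell. Rfc2, a subunit of the clamp loader, was at 1089, 1119 and 1155 in shLuc and 545, 564 and 628 in shSca-1. It fell on 5 arrays (-0.93, adjusted p = 0.0050), whereas the primase subunit Prim1 had -0.28 (adjusted p = 0.16). The lists were not tested against each other.

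**Figure D5:**
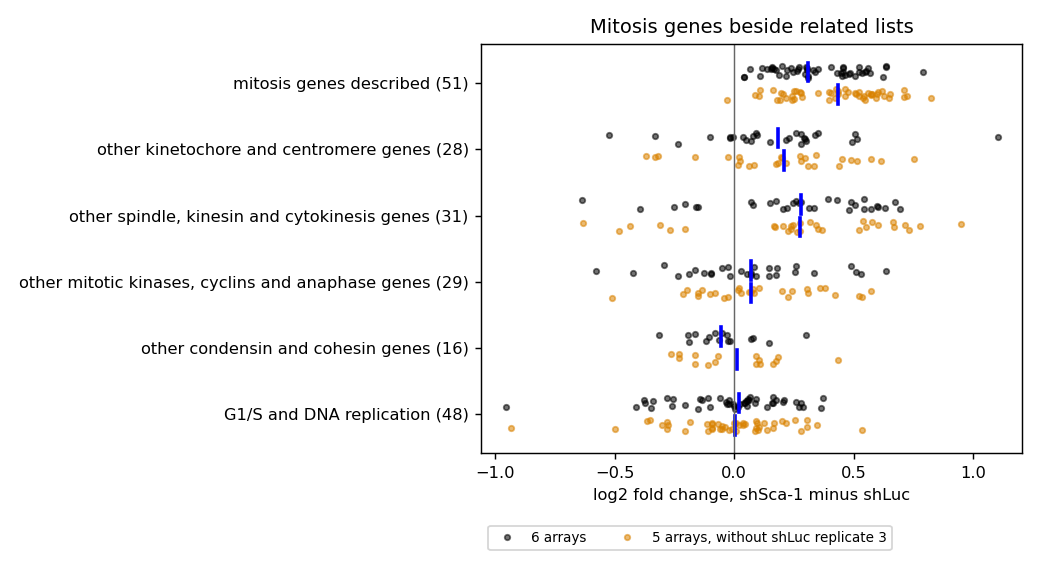
Log2 fold change (x axis, shSca-1 minus shLuc) of the 51 mitosis genes and of 5 related lists (y axis, number of measured genes in brackets). Points are genes, black from 6 arrays and orange without shLuc replicate 3, and blue lines are medians, which are 0.31 for the 51 genes and 0.02 for G1/S and DNA replication on 6 arrays.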

How the data were processed

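RNA from 3 shLuc and 3 shSca-1 samples of Wnt1-YL cells was measured on Affymetrix mouse arrays. The deposited values are linear intensity values that the authors computed with dChip (PM-MM model, invariant set normalization); no genome build was used here for the probe sets. Scanner files were not used here. Values under 1 were set to 1 before log2 was taken of the deposited intensity. After removal of 64 control probe sets, linear models were fitted to the remaining 45037 in R 4.3.3 with limma 3.58.1. Its moderated test let the variance follow intensity (eBayes, trend), and p-values were adjusted over all of these probe sets by the Benjamini-Hochberg method. Of these, 34945 had 1 gene symbol, 932 several and 9160 none in the platform's annotation, which can be old. Promoters are from RefSeq. Precision is limited by the number of arrays.

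The members, lists, the array left out and the tests were chosen with earlier results of these data known. Genes given in full were those in the study's tables and, per role, the 2 with the smallest unadjusted p and the 1 with the lowest log2 fold change. Of related lists, the 2 with the smallest p were named; a few further members were named after their values were seen. Alternatives were 17 set out at the start and 3 added after seeing the data. The limma step was tested on simulated data. Deviations of same-numbered arrays from their group means were not positively correlated over all probe sets, and the main fit used no replicate block.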

Additional observations from a re-analysis of the deposited data

How the results depend on the processing

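The 5-array settings with another scaling or floor were chosen after seeing the data. The count of 51 mitosis genes past an adjusted p under 0.05 was 0 on 6 arrays and 0 to 27 when 1 array was left out, where shLuc replicate 3 gave the 27 and each other array gave 0. On 5 arrays it was 37 after quantile normalization and 32 after median centring, and 0 with intensities under 64 set to 64, beside 1114, 931 and 20 of all 18193 genes in either direction (708 with none of these). The count past the study's thresholds was 3, with 8 after quantile normalization, 8 after centring, 0 with each gene's probe sets averaged, and 1 to 11 when 1 array was left out. On 5 arrays it was 18, 16 and 9 with quantile normalization, centring and the floor of 64. Separated genes numbered 25, and 25 to 46 with 1 array left out, or 50, 48 and 46 in the same 3 settings. Over all genes, 7.18% were separated upward on 6 arrays and 15.4% without shLuc replicate 3. The share of all genes past the study's thresholds as higher was 0.528% on 6 arrays and 1.08% without that array. Shares of these calls over all genes are not given for the other settings. The median log2 fold change was 0.31, and 0.52 and 0.48 on 5 arrays with quantile normalization and centring. The direction turned for Aurka (-0.34) and Bub3 (-0.10) with probe sets averaged, and for Cit (-0.03) on 5 arrays with the floor of 64. With 1 array left out, Birc5 ranged from -0.00027 (without shLuc replicate 2) to 0.57, Nusap1 from -0.031 (without shSca-1 replicate 3) to 0.22, Top2a from -0.024 (without shSca-1 replicate 3) to 0.10, and Cit from -0.03 (without shLuc replicate 3) to 0.15. The other 494 settings of the 28 genes kept direction and side, and 59 newly passed the threshold. The cause of these changes was not tested.

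With a replicate block, 0 genes passed and 3 were past the study's thresholds, and Foxm1 had an adjusted p of 0.63. Deviations of same-numbered arrays from their group means had correlations of -0.0428, -0.02 and -0.029 over all probe sets. The labels do not say whether same-numbered arrays belong together, and these correlations cannot settle it. The methods' t-test gave 0 genes at an adjusted p under 0.05 among all 18193, and limma on 6 arrays also gave 0. At an unadjusted p under 0.05, limma gave 26 of the 51 as higher, beside 3.57% of all genes (5.77% of the equally bright genes). Quantile normalization and centring moved the median of all genes from -0.04 to 0.02 and 0.03, and all 51 stayed above it.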

Other observations

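Some dim probe sets of mitosis genes ran against the brightest one. Kif23 had a log2 fold change of -1.76 on a probe set with a mean intensity of 6.13, Aurka -1.13 on one with a mean of 7.02, and Bub3 -0.79 on one with a mean of 17.9. Within the groups, shLuc replicate 1 exceeded shLuc replicate 2 for 49 of the 51 genes, and shSca-1 replicate 3 was the highest shSca-1 array for 36.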
